A study of Mus musculus with 7 samples.

Results

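Rhox5, Rhox6, Rhox9 and Rhox13 are 4 of the 34 Rhox homeobox genes among the 31053 genes of the deposited tables. They were chosen by their levels in these same germ cells, which had been seen to be high or to change around the entry into meiosis, so those levels are described here and not tested. Single cells of C57BL/6J wild-type mice were measured in 7 libraries, 1 for each age: gonads of both sexes at E11.5, samples labelled as ovaries at E12.5 and E14.5, ovaries shortly before birth at E16.5 and E18.5, and ovaries of pups at P1 and P5. Each library held cells of several pooled gonads that were dissociated without a sort, for longer at older ages, and no treatment was given. The E12.5 library held male cells too, since 7.18% of its somatic and 6.03% of its germ cells had a UMI of a Y-linked gene, against 28.3 and 36.8% at E11.5 and 0 to 0.154% of somatic cells at later ages. Because an age was measured in 1 library, differences between ages have no replicate check, and the 95% intervals in parentheses cover counting error only.

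The Rhox genes lie in 1 cluster on the X chromosome and encode transcription factors with a homeodomain, the domain that binds DNA. They are known for their activity in reproductive tissues: testis, ovary, epididymis and placenta. Rhox5, first described under the name Pem, is the founding gene of the family. Rhox6 and Rhox9, also known as Psx genes from placenta, are paralogs expressed in primordial germ cells, and Rhox13 is a member known from germ cells of both sexes. Female germ cells of the fetal ovary divide, then turn on Stra8, the gene that licenses meiotic entry, and then Sycp3, a component of the synaptonemal complex that holds homologous chromosomes together.

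On GRCm38 (GENCODE vM21) the cluster spans 916 kb of the X chromosome, chrX:37213804-38129967. Rhox5 (ENSMUSG00000095180) lies at chrX:37804842-37808876 on the plus strand, Rhox6 (ENSMUSG00000006200) at chrX:37826910-37829857 on the plus strand and Rhox9 (ENSMUSG00000068048) at chrX:37899097-37901770 on the minus strand. They are genes 25, 26 and 30 along the cluster. Rhox13 (ENSMUSG00000050197) is the last of the 34, at chrX:38121219-38129967 on the plus strand. All 4 are annotated as protein-coding. Of the 451 windows of 50 bases in the last 500 bases of each transcript, where 3′ reads fall, 0 windows of any of the 4 occurred in a transcript of another gene. Their counts were therefore not divided among copies by shared sequence of that length, whereas the copies of Rhox2, Rhox3 and Rhox4 shared up to 100% of such windows and are reported as uncertain.

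RefSeq promoter sequences, 250 bases before to 50 after the transcript start, were at hand for 27 of the Rhox genes and for Rhox5 and Rhox13 among the 4. The windows of Rhox5 and Rhox13 are shown because none was at hand for Rhox6 and Rhox9, with capitals marking CpG dinucleotides. Both are on the plus strand of GRCm38.p6, at chrX:37754358-37754657 for Rhox5 and chrX:38120590-38120889 for Rhox13.
Rhox5: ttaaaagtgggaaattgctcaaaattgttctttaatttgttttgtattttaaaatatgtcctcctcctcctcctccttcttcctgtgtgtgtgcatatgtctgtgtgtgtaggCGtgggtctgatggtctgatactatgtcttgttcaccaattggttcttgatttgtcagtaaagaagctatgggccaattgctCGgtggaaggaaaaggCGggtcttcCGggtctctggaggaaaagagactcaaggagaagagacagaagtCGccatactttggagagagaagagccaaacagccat
Rhox13: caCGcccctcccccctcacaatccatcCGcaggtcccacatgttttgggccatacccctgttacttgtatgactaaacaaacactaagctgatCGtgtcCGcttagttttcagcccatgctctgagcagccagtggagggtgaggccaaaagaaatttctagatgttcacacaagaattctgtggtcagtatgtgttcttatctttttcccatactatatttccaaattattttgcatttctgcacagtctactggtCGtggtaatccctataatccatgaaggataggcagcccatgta
Both windows held 5 CpG dinucleotides, where the median of all 32851 promoters was 7 and 38.0% of promoters held fewer than 5. The RefSeq start of Rhox5 lay 50234 bases before the GENCODE start of the gene and that of Rhox13 379 bases before. Which start was used in these germ cells was not measured. On either strand the letters AGATAA, a motif of the GATA factors, occurred in the Rhox13 window and in 11.2% of all promoters. None of CACGTG (E-box, 7.15% of all promoters), TTCCCGCC or TTTCCCGC (E2F, 2.73%) and TATAAA (13.6%) occurred in either window. DNA methylation was not measured in these samples.

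After removal of cells with fewer than 200 genes, the libraries held between 3848 cells at E18.5 and 11060 at E14.5. A cell with at least 3 unique molecular identifiers (UMIs, each 1 captured RNA molecule) of Dazl, Ddx4 and Pou5f1 together was called a germ cell, and every other cell somatic. Dazl and Ddx4 encode RNA-binding proteins of the germ line, and Pou5f1 is a pluripotency factor that early germ cells retain. In the order of the ages there were 38, 348, 2714, 1024, 439, 246 and 62 germ cells, with medians of 20367, 23308, 12685.5, 24969.5, 12107, 20695.5 and 60954 UMIs. The markers Dazl, Ddx4, Pou5f1, Dnd1, Mael and Utf1 together stood at 993 to 2144 counts per 1000000 UMIs (CPM) in germ cells and at 4.04 to 46.8 CPM in somatic cells. Since Dazl, Ddx4 and Pou5f1 define the gate, part of this contrast was fixed by it, and it is no check of the gate. Between 10.5 and 34.2% of the germ cells of a library also passed as a somatic class by marker UMIs, and no doublets were removed. The E16.5 library stood apart, with 9 of its cell barcodes (0.0836%) found in another library against 4.0 to 5.41% elsewhere, although the labels give 1 chemistry for all. What caused this difference in barcodes was not tested. Any effect of it on the levels at E16.5 cannot be told apart from that of age. For this reason E18.5 is given beside the results that turn on E16.5.

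Rhox9 was the highest of the 4 genes in germ cells up to E14.5, with Rhox5 and Rhox6 at the same order of magnitude. At E11.5 its interval overlapped that of Rhox6. Levels are UMIs of a gene summed over a class of cells and divided by all UMIs of that class, in CPM. A molecule is counted once whatever its length, so length does not enter the levels. Differences in capture between genes were not measured, so comparisons between genes are approximate. The level of Rhox9 in germ cells was 772 CPM (712 to 836) at E11.5, was highest at E12.5 with 887 (867 to 909), and was 602 (594 to 610) at E14.5. In the 4 older libraries, from E16.5 to P5, it was 31.2 (29.0 to 33.4), 19.8 (16.2 to 23.9), 7.71 (5.66 to 10.2) and 0.291 (0.00736 to 1.62) CPM. The 3 youngest libraries were far above the 4 older ones, with no overlap of the intervals. At E12.5 Rhox9 ranked 5 among the 596 X-linked genes with a UMI in germ cells and 150 among all 16652 such genes.

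Rhox5 stood at 637 (583 to 695), 713 (695 to 733) and 527 (520 to 535) CPM in the 3 youngest libraries. From E16.5 to P5 its level was 10.1 (8.91 to 11.4), 18.9 (15.4 to 22.9), 29.7 (25.5 to 34.3) and 0.581 (0.0704 to 2.10) CPM. It was lower at E16.5 than at E18.5 or P1, and its interval at E16.5 did not meet theirs. The level of Rhox6 was 666 (610 to 725), 576 (559 to 593) and 381 (374 to 387) CPM in the 3 youngest libraries and 25.2 (23.3 to 27.2), 21.6 (17.9 to 25.9), 9.02 (6.79 to 11.7) and 1.16 (0.317 to 2.98) CPM in the 4 older ones. Unlike Rhox5 and Rhox9 it did not stand higher at E12.5 than at E11.5. The intervals of Rhox6 at E16.5 and E18.5 overlapped.

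Rhox13 followed another course. Its level in germ cells was 2.53 (0.306 to 9.13), 2.71 (1.68 to 4.14) and 25.1 (23.5 to 26.7) CPM in the 3 youngest libraries. It was 53.4 (50.6 to 56.3) at E16.5, the next library at E18.5 had 56.3 (50.2 to 62.9), and the 2 libraries after birth had 34.8 (30.2 to 39.8) and 1.45 (0.472 to 3.39) CPM. The plateau at E16.5 and E18.5 had overlapping intervals and lay above every other age. From E16.5 to P1 Rhox13 was the highest of the 4 genes, although its interval at P1 overlapped that of Rhox5, and its peak stayed far under the levels of the others up to E14.5.

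**Figure D1:**
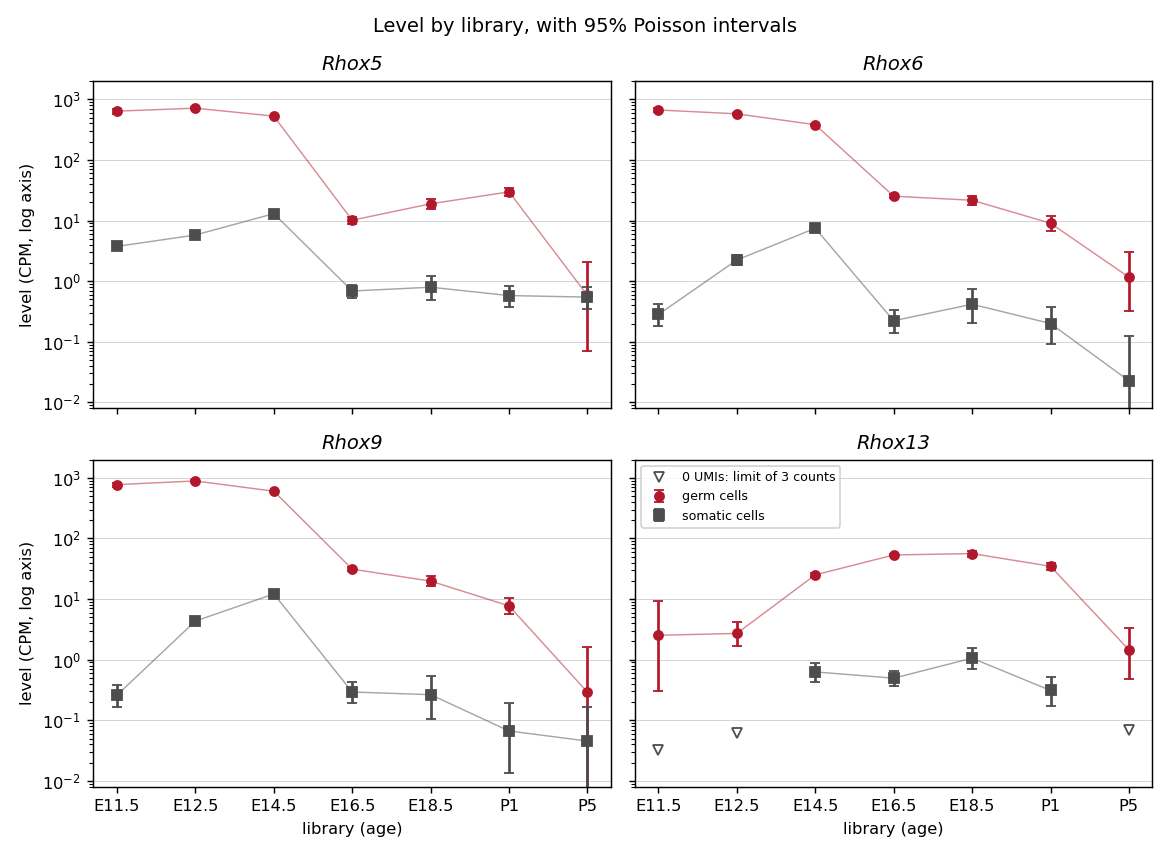
Level in CPM (log axis) of the 4 genes by library, with red circles for germ cells, grey squares for somatic cells, bars for 95% Poisson intervals and open triangles for the limit that a count of 0 allows (3 counts). Rhox5, Rhox6 and Rhox9 stood at 381 to 887 CPM in germ cells up to E14.5 and at or under 31.2 CPM from E16.5, while Rhox13 was highest at E16.5 and E18.5.

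From E12.5 to E14.5 the 3 early genes changed little beside what followed. The level of Rhox5 was 1.35-fold lower at E14.5 (1.31 to 1.39), that of Rhox6 1.51-fold (1.46 to 1.56) and that of Rhox9 1.47-fold (1.44 to 1.52), while that of Rhox13 was 9.25-fold higher (6.01 to 15). The Rhox13 ratio rests on 21 UMIs at E12.5 and became 18.1 after each cell was thinned to 2000 UMIs and 16.3 without the germ cells that carried somatic markers. Of the 4 genes, 0 were at least 4-fold lower, against 0.77% of the 7665 genes with at least 10 CPM at either age, and Rhox13 alone was at least 4-fold higher, against 2.54%. The choice of the genes rests on these levels, so nothing is read from such counts.

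Between E14.5 and E16.5 the level of Rhox5 was lower by a factor of 52.1 (46.1 to 59.2), that of Rhox9 by 19.3 (18.0 to 20.8) and that of Rhox6 by 15.1 (14 to 16.4). Rhox13 was 2.13-fold higher (1.96 to 2.32). These 3 of the 4 genes were at least 4-fold lower, as were 4.58% of 8902 genes tested. Ordered from the lowest ratio, Rhox5 was 15, Rhox9 45 and Rhox6 61 among those genes. The median of all genes tested moved by 0.59 on the log2 scale in the same step, and relative to it the levels at E16.5 were 0.0127, 0.0343 and 0.0439 of those at E14.5 for Rhox5, Rhox9 and Rhox6, and that of Rhox13 was 1.41-fold higher.

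The 3 genes were also low at E18.5, where Rhox5 was 1.87-fold higher than at E16.5 (1.47 to 2.35). From E14.5 to E18.5 Rhox5 was 27.9-fold lower (23.0 to 34.2), Rhox6 17.6-fold (14.7 to 21.3) and Rhox9 30.4-fold (25.2 to 37.1), and Rhox13 was 2.25-fold higher (1.97 to 2.56). At this step 3.04% of 8617 genes were at least 4-fold lower. The order of the 3 genes differed between the libraries: Rhox5 was the lowest at E16.5, whereas the 3 intervals overlapped at E18.5.

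The genes parted again around birth. From E18.5 to P1 the level of Rhox5 was 1.57-fold higher (1.23 to 2.02), while that of Rhox6 was 2.40-fold lower (1.73 to 3.36), that of Rhox9 2.57-fold lower (1.81 to 3.70) and that of Rhox13 1.62-fold lower (1.35 to 1.94). The intervals of the ratio of Rhox5 and of the other 3 lay on opposite sides of 1, and the median of all 8589 genes tested moved by -0.02 on the log2 scale. At P1 181 UMIs of Rhox5 came from 83 of 246 germ cells, with up to 10 in a cell. By P5 the 62 germ cells, the deepest of the series, held 2 UMIs of Rhox5, 4 of Rhox6, 1 of Rhox9 and 5 of Rhox13. From P1 to P5 Rhox5 was 51.1-fold lower (13.9 to 425) and Rhox13 23.9-fold lower (10.1 to 74.4), and 1.52% of 8472 genes were at least 4-fold lower. The P5 levels rest on so few UMIs that their order could not be told.

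At the level of single cells, nearly all early germ cells carried the 3 early genes. A UMI of Rhox5 was found in 94.7% (82.3 to 99.4, exact binomial), 99.1% (97.5 to 99.8) and 88.9% (87.7 to 90.1) of germ cells in the 3 youngest libraries. The share was 17.2% (14.9 to 19.6), 17.3% (13.9 to 21.2), 33.7% (27.9 to 40.0) and 3.23% (0.393 to 11.2) in the 4 older ones. The same share of somatic cells, given for comparison, was 2.64, 4.29, 6.70, 0.657, 0.587, 0.415 and 0.378%, at medians of 10043.5, 10708, 5704.5, 10370, 6671, 7091.5 and 6635.5 UMIs. The share in germ cells was above that in somatic cells at every age before P5. For Rhox9 the share of germ cells went from 97.7% at E12.5 to 45.6% at E16.5 and 20.3% at E18.5, and for Rhox6 from 95.4 to 36.6 and 22.3%. Rhox13 was found in 4.89% of germ cells at E12.5, in 20.7% at E14.5 and at most in 56.3% at E16.5, with 44.2% at E18.5. In somatic cells this share was 0 of 4357 at E12.5, 0.441% at E16.5 and 0.733% at E18.5.

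Depth differed between libraries, so each cell was also thinned to 2000 UMIs. The thinned share of Rhox9 was 81.6, 79.3 and 59.5% in the 3 youngest libraries, 5.73% at E16.5 and 3.46% at E18.5. For Rhox5 it was 74.0% at E12.5, then 56.7% at E14.5, then 1.23% at E16.5, with 2.54% in the E18.5 library and 7.66% at P1, and for Rhox13 0.299, 4.90, 8.70, 9.01 and 5.96% in those libraries. The order of E16.5 and E18.5 for Rhox13 thus turned with thinning, from 56.3 and 44.2% to 8.70 (7.01 to 10.6) and 9.01% (6.48 to 12.1), and the thinned intervals overlapped. In counts per cell, the median germ cell at E12.5 held 18 UMIs of Rhox9, 15 of Rhox5 and 11 of Rhox6. At E16.5 these medians were 0, and the median germ cell held 1 UMI of Rhox13, while at E18.5 the medians of all 4 genes were 0.

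**Figure D2:**
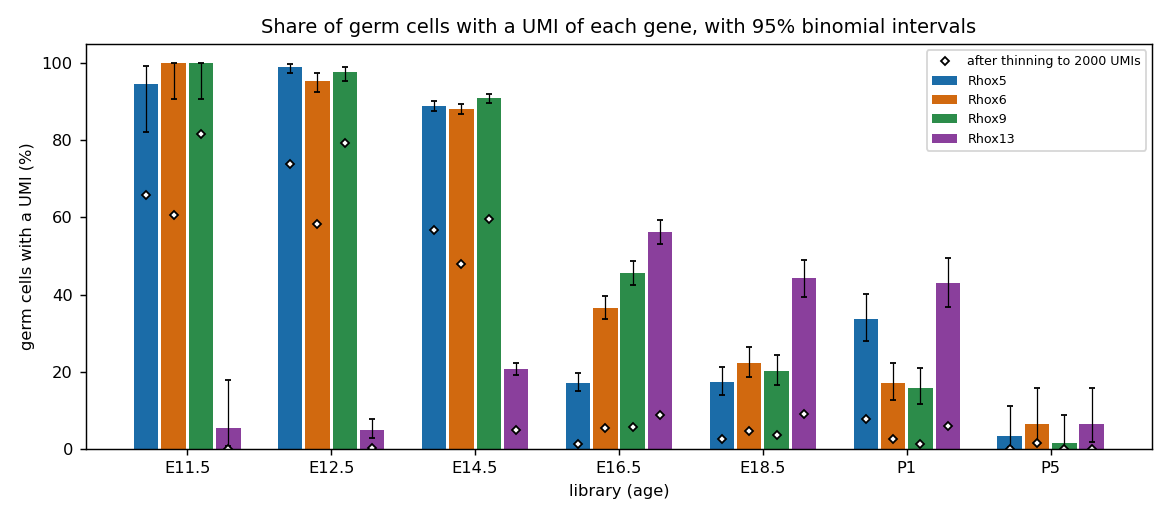
Percentage of germ cells with at least 1 UMI of each gene by library, with bars for all germ cells, black lines for 95% exact binomial intervals and white diamonds for the share after thinning to 2000 UMIs. Rhox5, Rhox6 and Rhox9 were found in 88.1 to 100% of germ cells up to E14.5, and Rhox13 in 56.3% at E16.5 and 44.2% at E18.5.

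The gate that defined germ cells separated high from low levels by degrees. At E14.5 the 213 cells with 2 gate UMIs, just outside, had 69.2 CPM of Rhox5, 40.9 of Rhox6, 46.4 of Rhox9 and 5.50 of Rhox13. The 96 cells with 3 gate UMIs, just inside, had 236, 111, 233 and 26.9 CPM. Cells with 5 or more had 531, 384, 607 and 24.9 CPM and made up 2554 of the 2714 germ cells.

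The timing of the loss was then followed within libraries. Germ cells with at least 2000 UMIs were classed by Stra8 and Sycp3 at 500 CPM each as both low, Stra8 high, both high or Sycp3 high, and no Rhox gene entered these classes. At E12.5 331 germ cells were both low and 3 Stra8 high. At E14.5 565 were both low, 1133 Stra8 high, 863 both high and 53 Sycp3 high, and at E16.5 914 of 977 were Sycp3 high, as were 392 of 433 at E18.5. Of the 2614 cells at E14.5, 419 lay within 100 CPM of a threshold, so neighbouring classes grade into each other.

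In cells with Stra8 and Sycp3 still low, the 3 early genes had nearly their E12.5 levels at E14.5. The ratio of E14.5 to E12.5 was 0.984 for Rhox9 (0.953 to 1.02), 0.944 for Rhox5 (0.911 to 0.978) and 0.936 for Rhox6 (0.900 to 0.974). The interval of Rhox9 held 1, and those of Rhox5 and Rhox6 ended below it. Rhox13 was already 2.43-fold higher in these cells at E14.5 (1.47 to 4.18). Germ cells with a Y-linked UMI, which at E12.5 had lower levels of the 3 early genes, were not left out of these ratios. The ratios were not recomputed without them.

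Across the classes at E14.5 the levels of the 3 early genes stepped down. The level of Rhox9 was 876 CPM (858 to 895) in both low, 611 (599 to 623) in Stra8 high, 321 (310 to 332) in both high and 251 (205 to 304) in Sycp3 high cells. That of Rhox5 was 672 (656 to 688), 566 (554 to 577), 328 (317 to 340) and 185 (146 to 232) CPM. Rhox6 stood at 540 (526 to 555), 363 (354 to 372), 255 (245 to 265) and 214 (172 to 264) CPM. Only the last pair of Rhox6 overlapped. The first step, to Stra8 high, was smallest for Rhox5 (1.19-fold, 1.15 to 1.22) and larger for Rhox9 (1.43-fold, 1.39 to 1.48) and Rhox6 (1.49-fold, 1.43 to 1.54). The second step, to both high, was 1.72-fold for Rhox5 (1.66 to 1.79), 1.90-fold for Rhox9 (1.83 to 1.98) and 1.42-fold for Rhox6 (1.36 to 1.49).

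In all, from both low to both high cells at E14.5, Rhox9 was 2.73-fold lower (2.62 to 2.84), Rhox6 2.12-fold (2.02 to 2.22) and Rhox5 2.05-fold (1.96 to 2.13). Rhox13 was higher in each class than in the one before, from 6.69 CPM (5.19 to 8.5) to 15.1 (13.3 to 17.1), 58.2 (53.5 to 63.2) and 77.9 (53.3 to 110), although the last 2 intervals overlapped, and was 8.69-fold higher (6.74 to 11.4) in both high than in both low cells. At least 4-fold higher were 3.44% of the 7756 genes tested and Rhox13 of the 4, and at least 4-fold lower were 1.71% and 0 of the 4. The median UMIs per cell went down through the classes from 17006 to 13740, 11183 and 7321, from both low to Sycp3 high. With cells thinned to 2000 UMIs the ratio of both high to both low was 0.446 for Rhox5, 0.536 for Rhox6, 0.385 for Rhox9 and 12.3 for Rhox13, each outside the interval of the unthinned ratio and in the same direction.

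Cells of the same class at E16.5 were lower still in the 3 early genes. Sycp3 high cells had 185 CPM of Rhox5 at E14.5 and 8.55 (7.41 to 9.80) at E16.5, which is 21.6-fold lower (16.4 to 28.3). In the same class Rhox6 was 8.86-fold lower (7.0 to 11.1) and Rhox9 8.62-fold lower (6.94 to 10.6), while the ratio for Rhox13, 0.704 (0.496 to 1.03), did not exclude 1. At E16.5 the 19 cells that still had both genes high stood between the ages, with 87.8 CPM of Rhox5 (62.1 to 121), 116 of Rhox6 (85.8 to 152) and 155 of Rhox9 (120 to 197). At E18.5 Sycp3 high cells had 19.6 CPM of Rhox5 (16 to 23.9), 21.2 of Rhox6 (17.4 to 25.6) and 20.2 of Rhox9 (17 to 25).

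**Figure D3:**
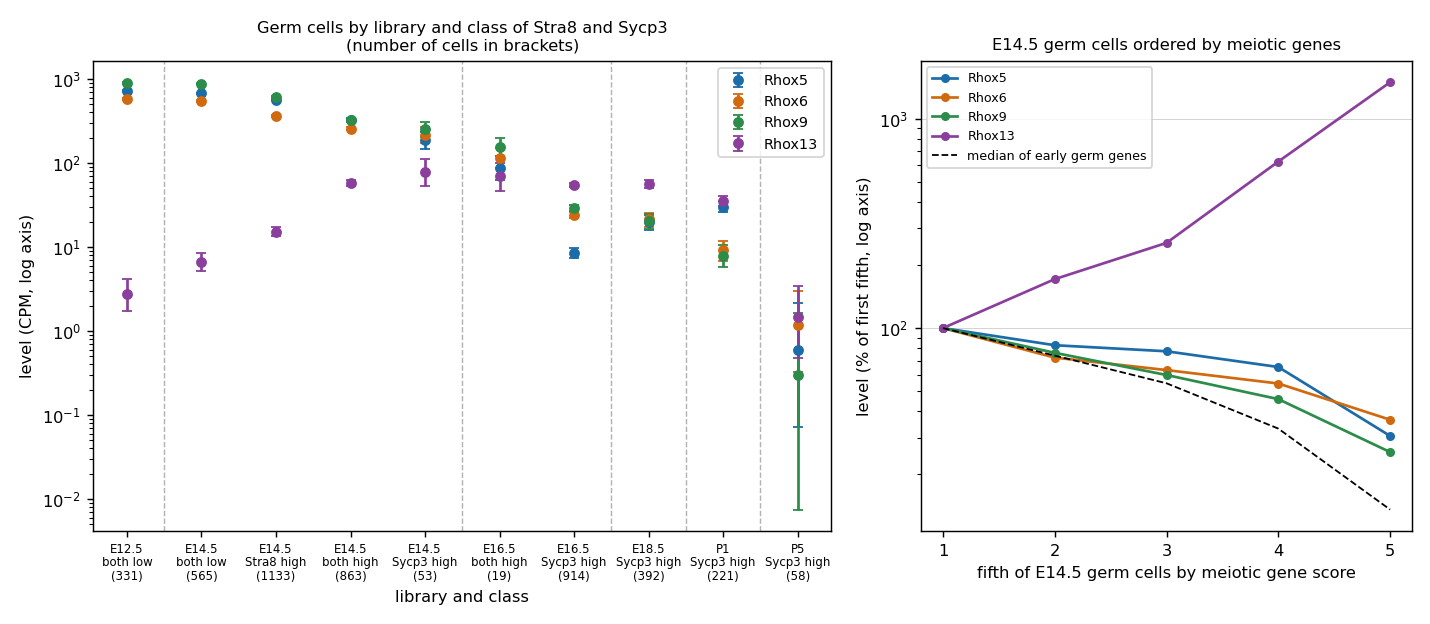
Left, level in CPM (log axis) of the 4 genes in germ cells by library and class of Stra8 and Sycp3, with 95% Poisson intervals and the number of cells in brackets; right, level in quintiles of the E14.5 germ cells ordered by a meiotic gene score, as a percentage of the first quintile (log axis), with the median of 17 early germ genes dashed. Rhox5, Rhox6 and Rhox9 ended at 25.6 to 36.5% of the first quintile, above the dashed line at 13.6%, and Rhox13 at 1493%.

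A second ordering of the E14.5 germ cells gave the same directions. Cells were ranked by the summed level of 10 meiotic genes and divided into 5 classes (quintiles) of 522 or 523 cells. Sycp3 was among these genes, so this ordering is not independent of the classes above. Median UMIs per cell went down from 16481 in the first quintile to 10022.5 in the last. The level of Rhox5 in the quintiles was 100, 82.8, 77.5, 65.2 and 30.6% of that in the first, that of Rhox6 100, 72.3, 63.0, 54.4 and 36.5% and that of Rhox9 100, 76.2, 59.7, 45.8 and 25.6%. Rhox5 kept the largest part through the fourth quintile and then dropped most steeply. From the first to the last quintile Rhox13 went from 5.70 CPM (4.27 to 7.45) to 85.0 (77.4 to 93.3), a ratio of 14.9, where that between the classes was 8.69. Between the same quintiles the ratio was 0.306 for Rhox5, 0.365 for Rhox6 and 0.256 for Rhox9.

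Early germ cell genes gave a measure to set the Rhox levels against. Of 18 such genes 17 had at least 10 CPM in the first quintile, and their median in the last was 13.6% of the first, with a range from 2.08 to 133%. Of these, 16 ended lower than Rhox5 and Rhox6 and 14 lower than Rhox9. Nanog, a pluripotency factor, ended at 2.08%, Dnd1, an RNA-binding protein of the germ line, at 4.83% and Utf1, a chromatin factor of pluripotent cells, at 8.75%. Dppa5a, whose protein is an RNA-binding marker of pluripotent cells, stood at 29.2% and Trap1a, an X-linked gene, at 133%.

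Between libraries most of the same list was lower where the 3 Rhox genes were. From E12.5 to E14.5 2 of 17 early germ genes tested were at least 4-fold lower, Nanog and L1td1, with a median log2 change of -1.12 against 0.09 over all genes. From E14.5 to E16.5 13 of 15 were at least 4-fold lower with a median of -4.45 (all genes: 0.59): Dppa3, Dppa5a, Ifitm3, Utf1, Tcl1, Sox2, Dnd1, L1td1, Sall4, Dppa4, Tfap2c, Lin28a and Prdm1. Dppa3, a maternal-effect gene, stood at 762 CPM at E14.5 and at 6.10, 234 and 2545 CPM in the next 3 libraries. Its level at P1 was thus above that at E14.5, unlike those of Rhox5, Rhox6 and Rhox9. From E14.5 to E18.5 10 of the 15 early germ genes tested were at least 4-fold lower, with a median of -3.91 (all genes: 0.35).

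Rhox13 moved in the direction of most meiotic genes. From E12.5 to E14.5 10 of 13 meiotic entry genes tested were at least 4-fold higher with a median log2 change of 2.79, among them Stra8 (34.7 to 1238 CPM), Sycp3 (47.1 to 404) and Sycp1 (48.1 to 381). Of 9 germ-line genes known to be silenced by promoter DNA methylation in other cells, of which Sycp1 and Hormad1 were in the meiotic list too, 5 were at least 4-fold higher in that step and 0 lower, with a median of 2.09. Among 17 genes for repressors of germ-line genes (DNA methyltransferases and polycomb-type complexes), 15 were tested and 0 were 4-fold lower or higher, with a median of 0.06. Of all 7665 genes tested in that step 0.77% were at least 4-fold lower and 2.54% higher, with a median of 0.09. A count of 0 among 15 is near those shares, so nothing is read from it. The 3 repressor genes with the highest peak in germ cells differed in direction. Uhrf1, which recruits DNA methyltransferase, went from 11.2 to 35.6 CPM. Mga, the DNA-binding part of a polycomb-type complex, went from 93.8 to 84.0 and then to 290 CPM at E16.5 and 125 at E18.5. Ezh2 was lower at each older age, with 240, 197, 158 and 83.2 CPM from E12.5 to E18.5.

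Somatic cells carried few UMIs of the 4 genes. The highest somatic levels of the 3 early genes were at E14.5, with 13.0 CPM of Rhox5 (12.0 to 14), 7.44 of Rhox6 (6.71 to 8.23) and 12.1 of Rhox9 (11.2 to 13.1). Rhox13 was at 0.628 CPM (0.430 to 0.887) in somatic cells at E14.5 and highest at E18.5 with 1.06 (0.703 to 1.53), and these intervals overlapped. For scale, the somatic level was set against the germ level for 10 germ cell genes that did not define the gate. At E14.5 these ratios ranged from 1.53 to 6.57% with a median of 2.34%, and the 4 Rhox genes, at 1.96 to 2.51%, lay within that range. At E16.5 the ratios of Rhox6, Rhox9 and Rhox13 were 0.883, 0.940 and 0.928%, and those of 8 germ cell genes ranged from 0.940 to 2.18%. At E18.5 the ratios of Rhox6 and Rhox13 were 1.92 and 1.88%, where 8 germ cell genes ranged from 1.07 to 2.28%. Whether the somatic UMIs of the 4 genes were free RNA from broken germ cells, lay in germ cells outside the gate or came from somatic cells themselves was not tested. At E14.5 Rhox5 was at 10.0 CPM in cells with 0 gate UMIs and at 69.2 CPM in cells with 2. At E16.5 it was at 0.705, 0.485 and 1.34 CPM in cells with 0, 1 and 2 gate UMIs, the last from 2 UMIs of Rhox5. At E11.5 cells with 0 gate UMIs held 330 of its 345 somatic UMIs, at 3.67 CPM, and the 7 cells with 2 had 79.2 CPM. Rhox5 at E16.5, with 0.687 CPM in somatic cells from 68 UMIs, stood apart: its germ level was 14.7-fold its somatic level (11.2 to 19.5), against 106-fold to 113-fold for the other 3 genes. At E18.5 this ratio was 23.8 for Rhox5 (14.8 to 40.0) and 52.0 for Rhox6 (28.0 to 107). It was 74.8 for Rhox9 (35.1 to 190) and 53.2 for Rhox13 (36.1 to 81.3). At that age the interval of Rhox5 overlapped those of the other genes. At P1 the ratio of Rhox5 was 1.95% (1.24 to 2.95), from 26 somatic UMIs, where 8 germ cell genes lay between 0.651 and 0.991%.

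At E11.5 the ratio of Rhox5 was above those of Rhox6 and Rhox9. Its somatic level was 3.74 CPM (3.36 to 4.16), or 0.587% (0.511 to 0.675) of the germ level, whereas Rhox6 was at 0.0423% (0.0274 to 0.0627) and Rhox9 at 0.0337% (0.0214 to 0.0506). The 345 UMIs of Rhox5 lay in 217 of 8218 somatic cells, with 1 UMI in 165 of them and up to 13 in a cell, and 10 of the 217 cells had a UMI of Dazl, Ddx4, Pou5f1, Dppa5a or Utf1 as well. Over all 8218 somatic cells Rhox6 had 26 UMIs, in 15 cells, and Rhox9 had 24, in 14 cells. Of the 4 germ cell genes at 20 CPM or more in germ cells at this age, Dppa5a was at 0.0429%, Utf1 at 0.198%, Dnd1 at 0.468% and Smc1b at 1.76%. Rhox5 lay above the intervals of Dppa5a (0.0357 to 0.0511) and Utf1 (0.162 to 0.240) and inside that of Dnd1 (0.350 to 0.621). Only Smc1b, at 25.3 CPM in germ cells, had an interval above it (1.01 to 3.17). The range of these genes is too wide to place Rhox5.

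The Rhox5 UMIs at E11.5 were spread over somatic classes named from marker genes. Endothelial cells had 7.74 CPM (4.73 to 11.9), supporting cells 4.52 (1.47 to 10.6), mesenchymal cells 4.20 (3.45 to 5.07), epithelial cells 3.04 (2.17 to 4.14) and erythroid cells 1.86 (0.929 to 3.33). Among these 5 classes the intervals overlapped in all pairs except endothelial with epithelial, endothelial with erythroid and mesenchymal with erythroid. The UMIs of the endothelial class came from 7 cells and those of the mesenchymal class from 75, and 3754 cells had no class. The endothelial markers at E11.5 stood at 97.3 CPM in germ cells and 73.8 CPM in all somatic cells, so they do not set this class apart from germ cells. Whether germ cells outside the gate passed as endothelial was not tested. At E12.5 the ratio of Rhox5 was 0.809% (0.715 to 0.912), again above Rhox9 (0.489%) and Rhox6 (0.387%) but inside the range of 9 germ cell genes (0.301 to 2.52%). From E16.5 to P5 the mesenchymal class held 1.07 to 1.36 CPM of Rhox5 in 6 to 26 cells with a UMI, and at P5 the level of Rhox5 in all somatic cells, 0.545 CPM (0.349 to 0.811), did not differ from the 0.581 CPM of germ cells beyond counting error.

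**Figure D4:**
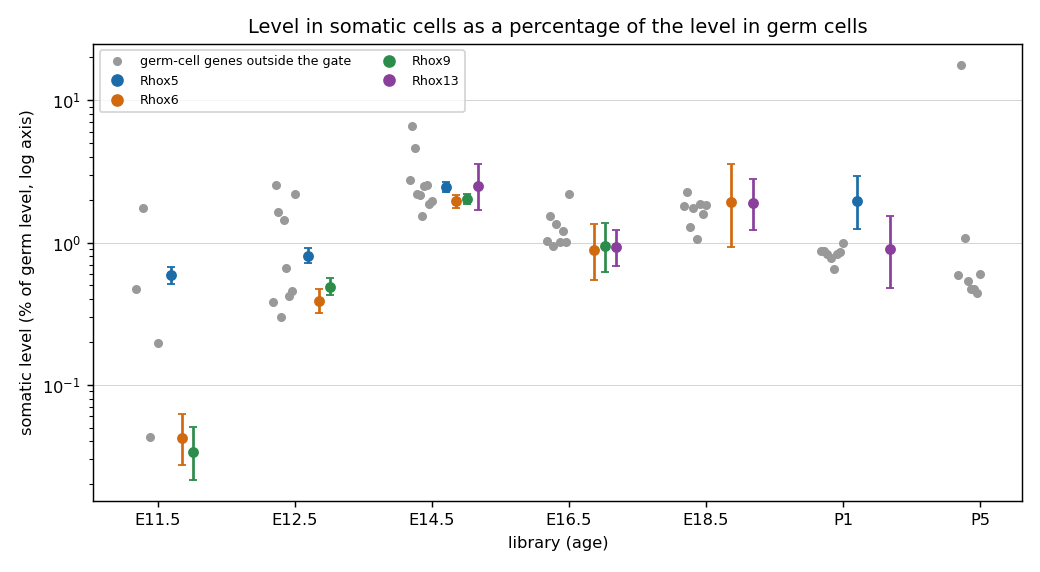
Level in somatic cells as a percentage of the level in germ cells (log axis) by library, with grey points for germ cell genes outside the gate and coloured points with 95% intervals for the Rhox genes; genes under 20 CPM in germ cells are not drawn. At E14.5 the Rhox genes lay at 1.96 to 2.51%, among the germ cell genes, and at E11.5 Rhox5 lay at 0.587% against 0.0423% for Rhox6 and 0.0337% for Rhox9.

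The 4 genes made up 73.7% of the 111128 Rhox UMIs of the series. Of the other 30 Rhox genes, 14 had at least 100 UMIs, and 1 (Rhox3a2) had 0. Rhox1, the first gene of the cluster, had another course: its germ level was 12.6 (6.06 to 23.2), 39.6 (35.3 to 44.3) and 124 (120 to 128) CPM in the 3 youngest libraries and 41.8 (39.3 to 44.4), 193 (182 to 205), 164 (154 to 174) and 167 (153 to 181) CPM in the 4 older ones. It was the highest Rhox gene from E18.5 on and lower at E16.5 than at the ages on either side. Rhox7a and Rhox7b, paralogs that share 49.4 and 86.5% of the end windows with other genes and are uncertain, were highest at E14.5 (28.1 CPM) and E18.5 (50.3 CPM).

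Rhox2 copies, summed over 8 genes, stood at 49.3, 75.1 and 145 CPM in the 3 youngest libraries and at 21.6, 104, 52.0 and 20.1 CPM in the 4 older ones. The 8 Rhox4 copies went from 59.4 CPM (43.6 to 79.0) at E11.5 to 18.6 at E12.5 and 17.2 at E14.5, and stood at 0.512 at E16.5 and 0.908 at E18.5. Rhox3 copies reached at most 4.90 CPM, at E18.5. Of 11 Rhox genes tested from E14.5 to E16.5, 7 were at least 4-fold lower, against 4.58% of all genes. They were Rhox5, Rhox6 and Rhox9, chosen by these levels, and the copies Rhox2a, Rhox2c, Rhox2g and Rhox2h, which share sequence. Nothing is therefore read from the count. From E14.5 to E18.5 3 of 11 were at least 4-fold lower, Rhox5, Rhox6 and Rhox9, against 3.04% of all genes. Rhox2a was at 65.2 CPM at E18.5 against 93.3 at E14.5. Within the E14.5 germ cells Rhox1 was 2.23-fold higher (2.05 to 2.44) in both high than in both low cells, Rhox7a 3.90-fold (3.20 to 4.78), Rhox7b 3.66-fold (3.14 to 4.27) and Rhox2a 1.25-fold (1.14 to 1.38).

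Rhox8 was higher in somatic than in germ cells from E12.5 on. It is known from the supporting cells of the gonads of both sexes, and its level at those ages was between 13.8 and 35.7 CPM in all somatic cells and between 0.872 and 4.64 CPM in germ cells. At E11.5 the order was the other way, with 11.4 CPM (5.20 to 21.6) in germ cells, from 9 UMIs, and 0.585 (0.440 to 0.764) in somatic cells. In supporting cells it stood at 18.1 (11 to 27.9), 60.5 (55.4 to 65.9) and 64.0 (60.4 to 67.8) CPM in the 3 youngest libraries and at 24.8 (22.9 to 26.8), 38.4 (33.6 to 43.6), 40.4 (35.4 to 45.8) and 29.5 (26.5 to 32.6) CPM in the 4 older ones. Epithelial cells went from 0 UMIs at E11.5, with an interval up to 0.281 CPM, to 72.6 CPM (65.0 to 80.8) at P5, above the supporting cells of that age. Mesenchymal cells stayed between 0.0778 and 4.92 CPM.

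**Figure D5:**
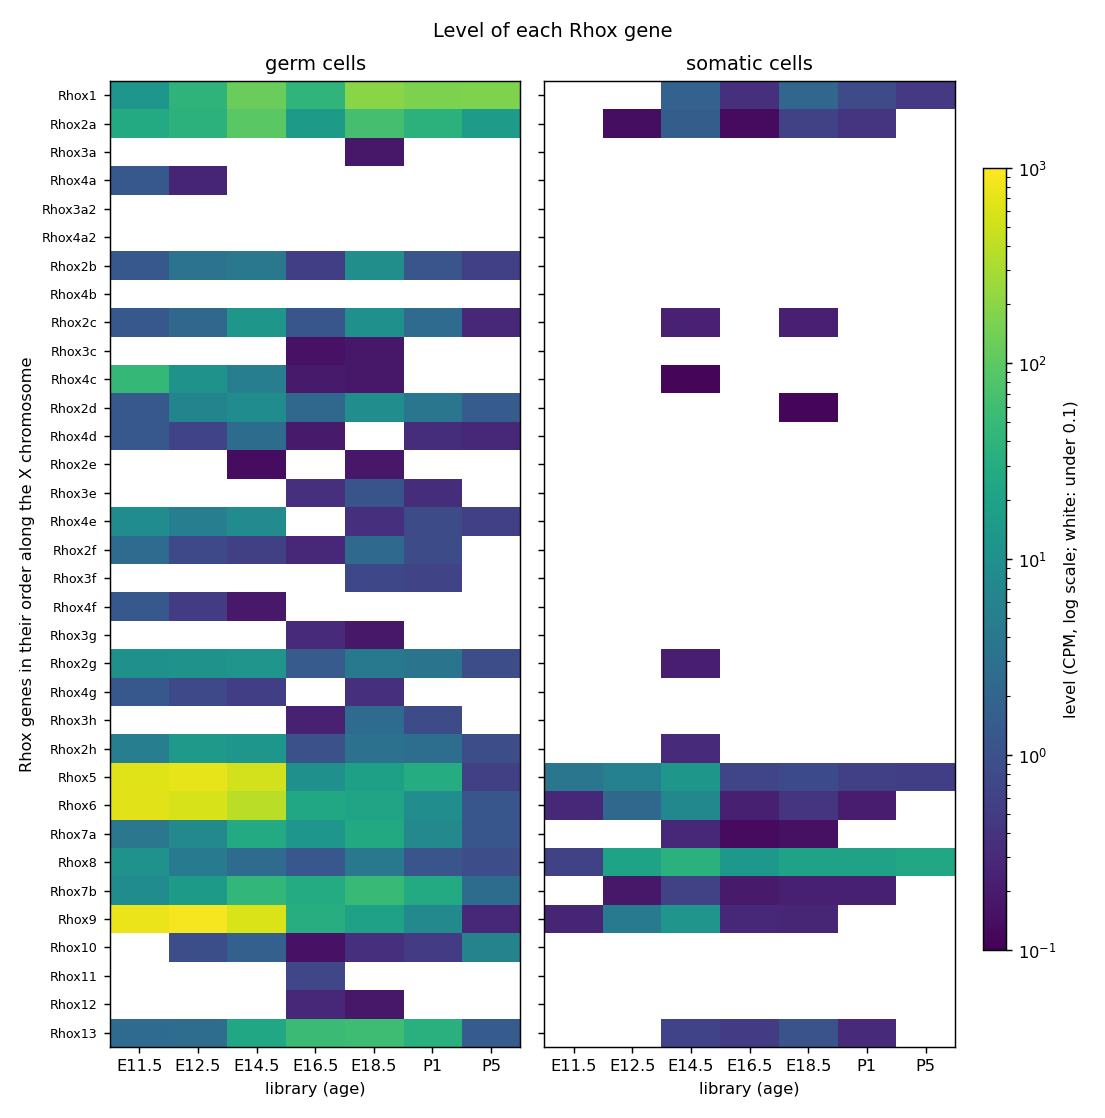
Level in CPM (colour, log scale) of the 34 Rhox genes in the order of the X chromosome, by library, in germ cells (left) and somatic cells (right); white marks levels under 0.1 CPM. Rhox5, Rhox6 and Rhox9 were the brightest genes of germ cells up to E14.5, Rhox1 from E18.5, and Rhox8 was the brightest of somatic cells from E12.5.

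The other X-linked genes were summed for comparison. X-linked genes other than Rhox took 2.84, 3.32, 3.91, 3.48, 3.70, 3.13 and 2.91% of germ cell UMIs in the order of the ages. Their share was highest at E14.5, and every older library lay below E14.5, with E18.5 above E16.5. The E11.5 and E12.5 sums pooled cells with and without a Y-linked UMI, which differed in this share. Rhox genes took 7.28, 6.6 and 4.63% of X-linked UMIs in the 3 youngest libraries and 0.654 to 1.34% in the others. From E14.5 to E16.5 the median log2 change of 338 X-linked genes other than Rhox was 0.77 (all genes: 0.59). At least 4-fold lower were 14 of these 338 genes, and 21 of 349 (6.02%) with Rhox included, against 4.58% of all 8902 genes tested. From E14.5 to E18.5 that median was 0.42 over 326 genes (all genes: 0.35).

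Germ cells of both sexes carried the 3 genes. A UMI of a Y-linked gene (Ddx3y, Eif2s3y, Uty or Kdm5d) was found in 14 of 38 germ cells at E11.5, 21 of 348 at E12.5 and at most 2 at each later age. At E11.5 the 14 cells had 757 CPM of Rhox5 (665 to 858), 702 of Rhox6 (614 to 799) and 843 of Rhox9 (746 to 949), and the 24 others 553 (488 to 625), 641 (571 to 718) and 723 (648 to 804). The intervals of Rhox6 and Rhox9 overlapped and those of Rhox5 did not. At E12.5 the 21 cells were lower than the 327 others for each gene: 594 CPM (532 to 662) against 723 (703 to 743) for Rhox5, 346 (299 to 398) against 593 (576 to 612) for Rhox6, and 553 (493 to 618) against 913 (892 to 936) for Rhox9. X-linked genes other than Rhox were also a smaller part of all UMIs in the cells with a Y-linked UMI. They took 2.51% against 3.37% at E12.5 and 2.66% against 2.95% at E11.5. Median UMIs per cell were 25282 against 23137 at E12.5 and 26494.5 against 18659 at E11.5. Whether the differences were particular to the Rhox genes was not tested. A cell without a Y-linked UMI can still be male, and cells of 1 library are not replicates.

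Over the 14 sums of germ and somatic cells by library, the log2 levels of Rhox6 and Rhox9 followed each other most closely of the 4 genes, with a Pearson r of 0.998, and Rhox5 had an r of 0.984 with Rhox6 and 0.983 with Rhox9. Rhox13 had an r of 0.207 to 0.239 with the others. These are descriptions over sums that share libraries, with no p-value. Among 6380 other genes with at least 50 CPM in a sum, the 5 most like Rhox5 were Sox2, a pluripotency factor (r = 0.966), Gldc, the glycine decarboxylase, BC048679, Tdh, the threonine dehydrogenase of pluripotent cells, and Igfbpl1. Among those most like Rhox6 were BC048679 (r = 0.978), Lrrc34, Porcn, the X-linked acyltransferase of Wnt ligands, and Gldc, and among those most like Rhox9 were BC048679 (r = 0.974), Gldc, Porcn and Sox2.

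Sox2, picked by its r over these same sums, stood at 226, 155, 89.5, 1.53, 0.726, 1.31 and 0.291 CPM in germ cells in the order of the ages. It was highest at E11.5, whereas Rhox5 was highest at E12.5, and it did not share the higher level of Rhox5 at P1. The genes most like Rhox13 were Tex101, a germ cell surface protein (r = 0.984), Taf7l, an X-linked germ cell relative of a general transcription factor subunit, Dmrtc2, Xlr, an X-linked gene, and Syce3, a component of the synaptonemal complex. Tex101 went from 1.26 and 8.64 CPM to 225, 425, 318 and 167 CPM and to 0 UMIs at P5, with Rhox13 at 25.1, 53.4, 56.3 and 34.8 CPM in the 4 middle libraries.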

How the data were processed

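UMI counts per gene and cell were deposited by the authors for 7 libraries, 1 per age. Per the labels and the study's methods, live cells of pooled dissociated gonads were loaded on the 10x Genomics v2 system, sequenced, and counted by the authors with Cell Ranger 3.1.0 on mm10 with default parameters. The deposited counts are whole numbers with no normalization. Reads that map to several genes are left out by such counting, which lowers the counts of near-identical copies. No columns of other samples were present.

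The study's own minimum of 200 genes per cell was applied. Levels are summed counts per 1000000 UMIs (CPM) with exact Poisson intervals, ratios have the exact binomial interval given the total of both counts, and shares have Clopper-Pearson intervals, all at 95%. No test was run, because each age has 1 library and the genes were chosen on these levels. The 4 genes, the gene lists and the classes were chosen with earlier results of these data known. Somatic classes took the marker list with the highest score if a cell had at least 3 of its UMIs and at least 2 times the next score. Thinning drew 2000 UMIs per cell without replacement with fixed seeds. Counts of genes past 4-fold used genes with at least 10 CPM at either side and 3 counts as the level of a gene at 0. Similar genes were the 5 with the highest Pearson r of log2(CPM + 10), of which 1 gene is not reported here. Other genes named from the lists were the 3 with the highest peak in germ cells and those past 4-fold, and further list genes were named after their values were seen. Positions came from GENCODE vM21 and promoters from RefSeq. The interval and fold routines were tested on simulated data. Python 3.11.15, numpy 2.4.6, scipy 1.17.1 and pandas 2.3.3 were used. Alternatives were another gate (5 or 10 UMIs, or no Pou5f1), a stricter cell filter (1000 genes or more, mitochondrial UMIs up to 10%), thinning, removal of germ cells with somatic markers, a mean over cells, and class thresholds of 300 or 1000 CPM. The removal of cells with a Y-linked UMI, the scaling by the median ratio, and the alternatives for E16.5 and E18.5 were chosen after seeing the data.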

Additional observations from a re-analysis of the deposited data

How the results depend on the processing

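No paired analysis was possible because each age has 1 library. The 16 ratios of the 4 genes (E14.5 to E12.5, E16.5 to E14.5, E18.5 to E14.5, and both high to both low cells at E14.5) were recomputed as 104 alternative values. Of these 63 lay within the counting interval of the reported ratio, 41 did not and 0 changed direction, and the largest change was 1.96-fold. The cause of these changes was not tested.

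Of E14.5 to E12.5, thinning gave 0.669 for Rhox5, 0.592 for Rhox9 and 18.1 for Rhox13. A mean over cells gave 0.638, 0.609 and 0.595 for Rhox5, Rhox6 and Rhox9, and division by the median ratio of all genes 0.695, 0.622 and 0.638. Without mixed cells Rhox9 was at 0.654 and Rhox13 at 16.3, and without cells with a Y-linked UMI Rhox9 was at 0.659. Of E16.5 to E14.5, thinning gave 0.0161, 0.0787, 0.0571 and 1.83 for Rhox5, Rhox6, Rhox9 and Rhox13, the median ratio 0.0127, 0.0439, 0.0343 and 1.41, and removal of mixed cells 0.0559 for Rhox9. Of E18.5 to E14.5, thinning gave 0.0267 for Rhox5 and 1.79 for Rhox13, and the median ratio 0.0282, 0.0446, 0.0258 and 1.77 for the 4 genes.

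Of both high to both low cells, thresholds of 300 CPM gave 0.550 for Rhox5 and 0.404 for Rhox9, and of 1000 CPM 0.351, 0.404 and 0.300 for Rhox5, Rhox6 and Rhox9. The last against the first quintile by meiotic score gave 0.306, 0.365, 0.256 and 14.9 for the 4 genes, and thinning 0.446, 0.536, 0.385 and 12.3. Without mixed cells Rhox5 was at 0.467. Depth limits Rhox13 at E11.5 and all 4 genes at P5, where at most 5 UMIs of a gene were counted.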
